A study of Mus musculus with 24 samples.

Results

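The livers of Acads+/+ mice fed a high-fat (HF) diet were set against the livers of Acads+/+ mice fed a low-fat (LF) diet, with 3 HF and 3 LF arrays, which are 6 of the 24 arrays of the series. Members were chosen by the labels alone: liver, genotype Acads+/+, and diet as given by the title and the treatment field. All 6 mice were BALB/cByKZ males, 12 weeks old and singly housed, which went over from chow to the HF (D12331) or the LF (D12329) diet for 2 days. BALB/cByKZ is the substrain with an intact gene for short-chain acyl-CoA dehydrogenase (Acads), and it is the control line for BALB/cByJ (Acads−/−), the substrain in which that gene carries a deletion. The 2 substrains have been bred apart, so other differences between them cannot be told apart from Acads. Another 6 arrays, of Acads−/− livers on the same HF and LF diets, were normalized and fitted together with these 6 and so share in the estimate of spread behind every p-value, and their own difference between diets is given for comparison. The source name of the LF samples calls them high-fat, against their title and treatment field, and every direction below rests on the title and treatment field being right. Each array held the RNA of 1 mouse. The arrays are called HF a, b and c and LF a, b and c, in the order of the deposited table. These letters are names only and pair no mice.

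The liver takes up dietary sugar and fat and changes its enzymes with the diet. On a meal rich in carbohydrate, glucose and fructose are broken down to pyruvate and built into fatty acids, under the transcription factors ChREBP (gene Mlxipl), which responds to sugar, and SREBP-1c (Srebf1), which responds to insulin. On a meal rich in fat, fatty acids are oxidized in mitochondria and peroxisomes, where the fatty acid receptor PPAR-alpha drives many of the enzymes. The question put by the design was which transcripts of a liver with normal short-chain fatty acid oxidation differed after a short exposure to the HF or the LF diet. By the methods of the study the HF diet held more fat and less carbohydrate, at an equal share of protein. By the diet composition that the study gives, the fat of the HF diet was also more saturated and less polyunsaturated than that of the LF diet. The amount of fat, the kind of fat and the amount of carbohydrate therefore cannot be told apart in any difference below.

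Among the genes with the lowest p-values was Pklr, which codes for the pyruvate kinase of liver and red blood cells, the last enzyme of glycolysis. It has 2 start sites in RefSeq, and a carbohydrate response element, searched for on both strands as the letters CANGNG and CNCNTG with 5 bases between them, was found before 1 of them. The 250 bases before that start site are shown because each HF array lay below each LF array for this gene. They lie at chr3:89136373-89136622 on the plus strand of GRCm38.p6 (RefSeq), and the capitals mark the match, which runs from 170 to 154 bases before the start site.
Pklr: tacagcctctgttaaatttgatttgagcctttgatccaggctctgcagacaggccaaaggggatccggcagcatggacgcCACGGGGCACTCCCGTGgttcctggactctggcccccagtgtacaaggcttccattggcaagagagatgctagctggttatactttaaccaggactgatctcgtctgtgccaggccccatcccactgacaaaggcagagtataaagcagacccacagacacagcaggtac
Of 27025 genes with a promoter of this length in RefSeq, 0.525% hold these letters on either strand. The match is a description of the sequence only.

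Measured values are log2 of the signal of a probe after the arrays were given a common distribution, and a difference of 1 between diets is a doubling of the signal. Before normalization the median signal was 438, 460 and 342 in HF a, b and c and 353, 353 and 340 in LF a, b and c. The dim end was brighter in HF arrays, where the signal at the 5th percentile was 151, 196 and 135, against 119, 112 and 113 in LF arrays. Arrays of 1 diet correlated at 0.930 to 0.949 within HF and 0.943 to 0.953 within LF, and HF arrays correlated with LF arrays at 0.917 to 0.951. The largest axis of variation over the liver arrays (22.3% of the variance) did not separate the diets, whereas on the second axis (14.8%) the HF arrays stood at 10.9, 16.8 and 37.3 and the LF arrays at −26.1, −38.1 and −25.5. HF c stood apart on the third axis, at 73.5, where the other 5 arrays lay between −9.10 and 8.17. HF a was far below the other arrays on some bright probes, such as Sqle, and its values there are given beside the results they touch. The Acads probe read 9.75, 9.67 and 11.39 in HF arrays, against 10.50, 10.46 and 8.76 in LF arrays, which overlap. It read from 7.54 to 10.03 over the 6 Acads−/− arrays, so the genotypes overlapped. Where this probe lies relative to the deletion is not given in the sources used here, and the labels were not checked by it. Hepatocyte genes were bright in all arrays, with albumin (Alb) at 19.98, 19.11 and 19.74 in HF arrays, against 19.56, 19.23 and 19.29 in LF arrays.

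Of 16506 probes tested, 0 (0%) differed between HF and LF livers at a Benjamini-Hochberg adjusted p under 0.05 from limma with a fold change of at least 1.6. The lowest adjusted p was 0.0878. With that fold change and an unadjusted limma p under 0.05, 511 probes (3.10%) were higher and 925 (5.60%) were lower in HF livers. The HF and LF arrays did not overlap for 1272 probes (7.71%) with HF higher and for 1579 (9.57%) with HF lower. Overlap was counted after quantile normalization only. The split depended on the scaling. With arrays scaled to a common median, the median difference over all tested probes was −0.319 in place of −0.00222, and 307 probes (1.86%) were higher and 2251 (13.6%) lower at the unadjusted p. None of the differences between the diets in Acads+/+ liver passed the adjusted test, and each is given as values. Shares of a gene list are read against the percentages of all probes just given. The lists were written from textbook knowledge of liver with earlier results of these data known.

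**Figure D1:**
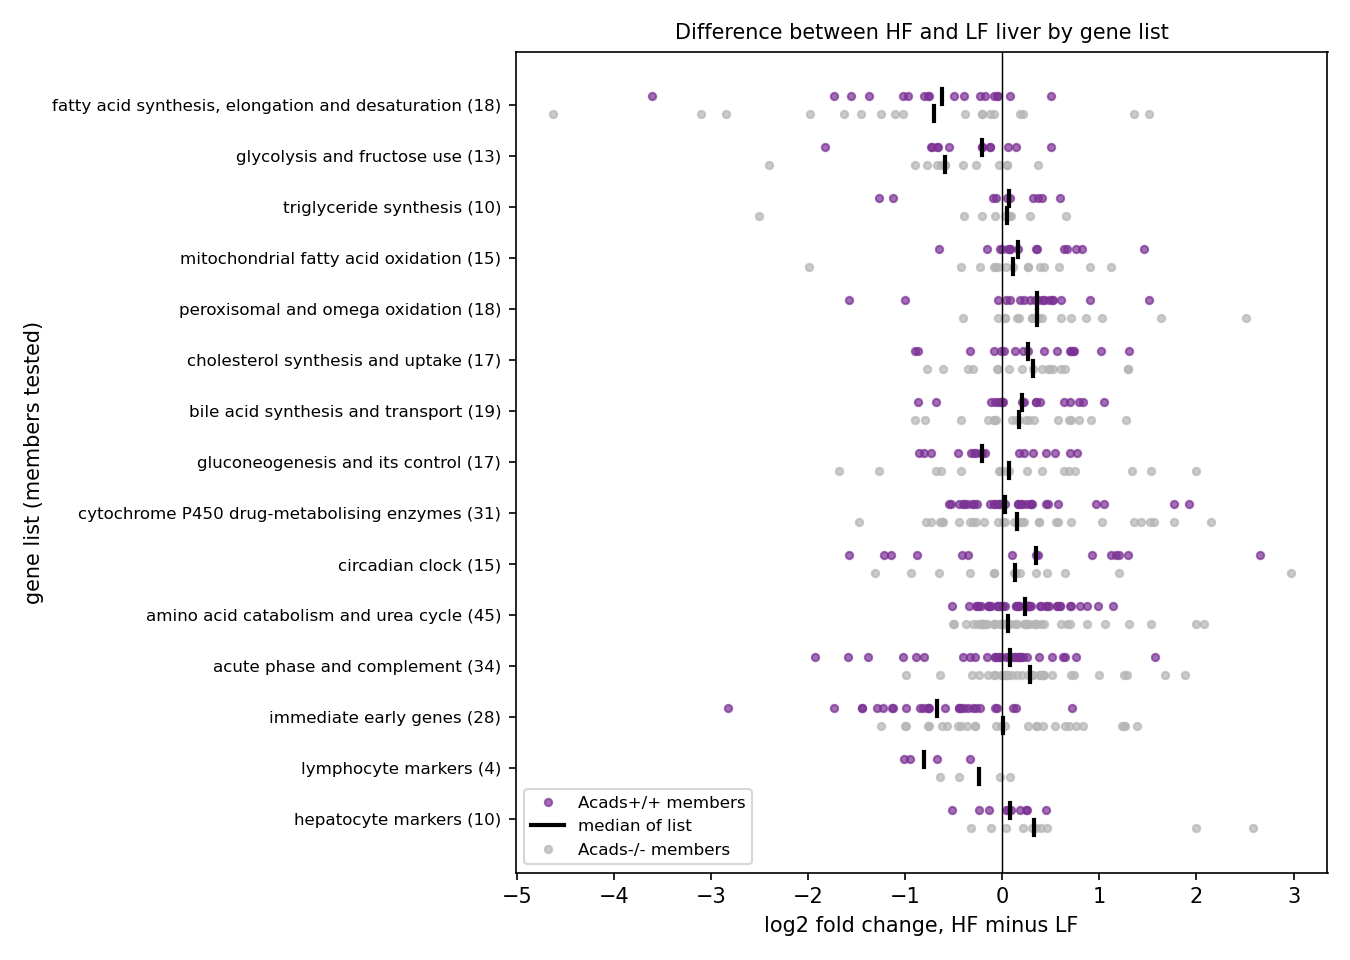
Each point is 1 gene of a list, placed by its log2 fold change, HF minus LF, in Acads+/+ liver (upper row of each list) or Acads−/− liver (lower row), and the black bar is the median of the list, with the number of members tested in brackets. In Acads+/+ liver the medians lay lowest for the lymphocyte markers (−0.81), immediate early genes (−0.67) and fatty acid synthesis (−0.63) and highest for peroxisomal oxidation (0.36), which is −0.05 with arrays scaled to a common median.

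Several genes that turn sugar into fat lay lower on the HF diet. Of 18 tested genes of fatty acid synthesis, elongation and desaturation, 7 (38.9%) were lower and 0 higher at the unadjusted p. The HF arrays lay wholly below the LF arrays for 7 of the 18, as for 9.57% of all tested probes. The median log2 fold change was −0.63, with 16 of 18 genes negative, and it was −0.40 without HF a. Leaving out LF a left 4 genes lower, and leaving out any other array left 5 or 6.

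Tkfc phosphorylates the glyceraldehyde that fructose leaves behind, and it had the lowest p of all named probes. It read 15.15, 15.14 and 15.42 in HF arrays, against 16.73, 16.99 and 16.67 in LF arrays. The log2 fold change was −1.56 ± 0.21 (SE, n = 3 per diet), which is 2.95-fold lower in HF livers (limma adjusted p = 0.0878). The gap between diets was several times the range within either of them. Pklr read 11.05, 10.38 and 11.41 in HF arrays, against 12.61, 13.05 and 12.67 in LF arrays. Its log2 fold change was −1.83 ± 0.26 (limma adjusted p = 0.0911). Khk, the ketohexokinase that opens fructose breakdown, read 17.42, 17.36 and 17.67 in HF arrays, against 18.32, 18.20 and 18.10 in LF arrays. Its log2 fold change was −0.72 ± 0.25 (limma adjusted p = 0.387). The 3 genes lie on the route from fructose to pyruvate. Tkfc and Pklr were named among probes whose diets do not overlap, so that only for Khk is the lack of overlap a measurement apart from the choice. Of 13 tested genes of glycolysis and fructose use, 3 (23.1%) were lower and 0 higher at the unadjusted p, namely Pklr, Khk and the aldolase gene Aldoa (log2 fold change −0.73 ± 0.28). Without HF b the count was 1, without LF a it was 2, and without LF c it was 5. Gapdh, often used as a reference gene, read 19.03, 19.12 and 19.20 in HF arrays, against 19.74, 19.89 and 19.71 in LF arrays, at a log2 fold change of −0.66 ± 0.16 (limma adjusted p = 0.270). Pdk1, a kinase that inhibits pyruvate dehydrogenase, read 14.28, 14.10 and 14.21 in HF arrays, against 15.14, 14.81 and 14.66 in LF arrays.

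Some lipogenic enzymes lay lower on the HF diet and others overlapped. Scd1, the desaturase that makes oleate from stearate, read 8.46, 7.15 and 8.77 in HF arrays, against 11.82, 11.77 and 11.63 in LF arrays. The fitted log2 fold change was −3.61 ± 0.65 (12.2-fold lower in HF livers, limma adjusted p = 0.167), and HF b was at the floor of 7.15 set for dim signals. This was the largest of the named differences, and the LF arrays were almost equal. Elovl6, which lengthens palmitate to stearate, read 14.30, 14.67 and 13.97 in HF arrays, against 17.16, 15.67 and 15.30 in LF arrays. Elovl5, which lengthens polyunsaturated fatty acids, read 18.17, 17.92 and 17.96 in HF arrays, against 19.40, 19.25 and 18.47 in LF arrays. For both the diets did not overlap, and for Elovl6 LF a lay far above the other LF arrays. Srebf1 itself read 17.38, 17.21 and 16.90 in HF arrays, against 17.62, 18.02 and 18.16 in LF arrays (log2 fold change −0.77 ± 0.29, limma adjusted p = 0.405). Mid1ip1, a partner of acetyl-CoA carboxylase, read 14.89, 15.19 and 15.28 in HF arrays, against 15.98, 16.27 and 16.03 in LF arrays (log2 fold change −0.97 ± 0.27, limma adjusted p = 0.296). Its close relative Thrsp, known as Spot 14, read 17.24, 16.91 and 17.88 in HF arrays, against 18.19, 18.87 and 17.41 in LF arrays, which overlap. Fasn, the fatty acid synthase, spread over a wide range in both diets, at 13.95, 16.69 and 17.05 in HF arrays, against 18.61, 14.89 and 18.29 in LF arrays. Its log2 fold change of −1.37 ± 0.98 (limma adjusted p = 0.650) was not larger than the spread between mice. Mlxipl, the gene for ChREBP, lay the other way at 0.50 ± 0.39, with overlapping arrays. Acaca, the acetyl-CoA carboxylase of this route, has no probe with its symbol, and Acly and Me1 were below the filter on dim signals.

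**Figure D2:**
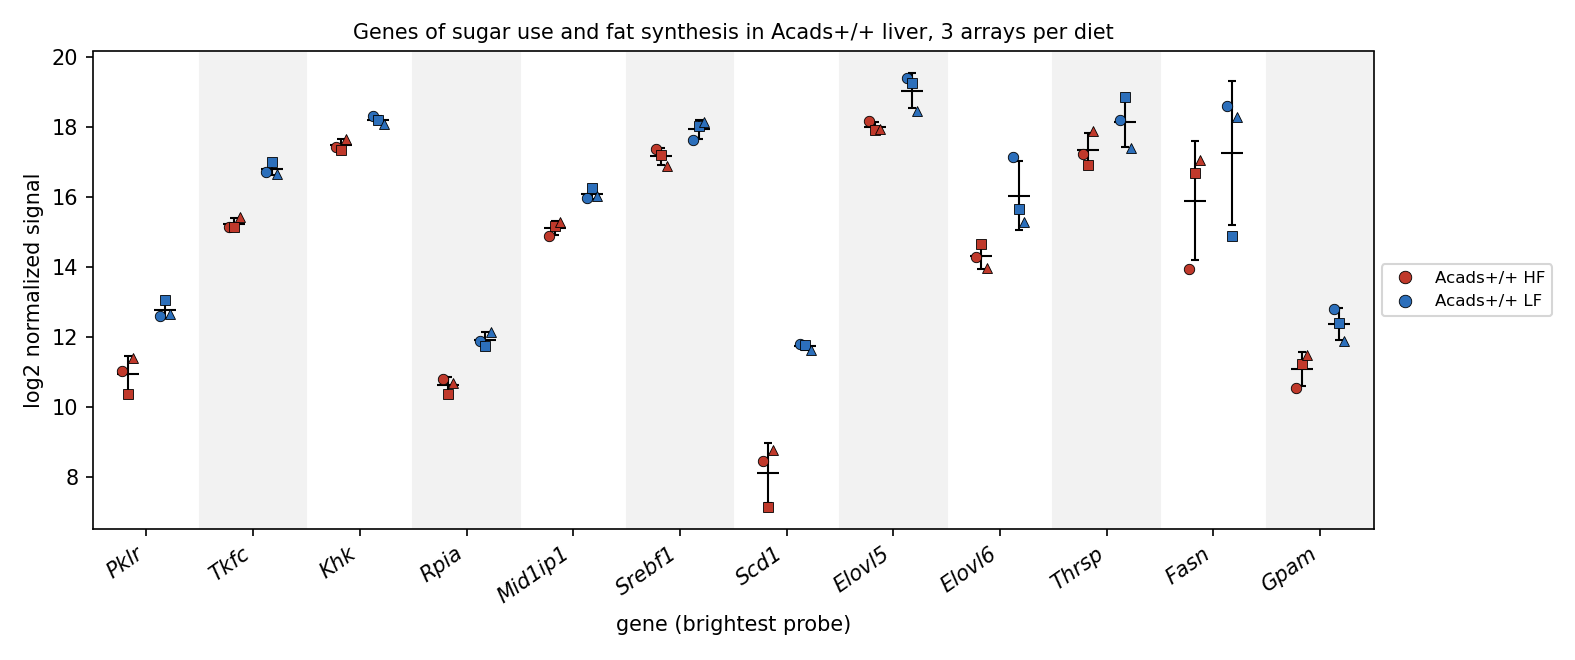
Log2 normalized signal of 12 genes of sugar use and fat synthesis in Acads+/+ liver, with HF arrays left of LF arrays (circle a, square b, triangle c), and black bars for the mean and SD of 3 arrays. The HF points lie wholly below the LF points for all genes drawn except Thrsp and Fasn, and the gap is widest for Scd1, whose fitted log2 fold change was −3.61. The genes were picked with their values known, and Pklr, Tkfc, Rpia and Scd1 were named for that lack of overlap, so the pattern follows in part from the choice. Mlxipl and Aldoa, whose diets overlap, are not drawn.

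Gpam makes the first intermediate of triglycerides from the fatty acids that these enzymes supply, and it read 10.56, 11.25 and 11.50 in HF arrays, against 12.81, 12.42 and 11.89 in LF arrays. The log2 fold change was −1.27 ± 0.31 (limma adjusted p = 0.269). It was the only one of 10 tested triglyceride synthesis genes past the unadjusted threshold, and the median of that list was 0.06, or −0.27 with arrays scaled to a common median. Rpia, an enzyme of the pentose phosphate pathway, read 10.82, 10.39 and 10.70 in HF arrays, against 11.89, 11.74 and 12.16 in LF arrays (log2 fold change −1.29 ± 0.23, limma adjusted p = 0.167). Acsl5, which activates fatty acids to their CoA esters, read 18.07, 18.16 and 18.40 in HF arrays, against 18.98, 18.96 and 18.68 in LF arrays. The fatty acid binding protein gene Fabp5 read 11.18, 11.55 and 11.69 in HF arrays, against 13.07, 13.70 and 12.38 in LF arrays (log2 fold change −1.58 ± 0.53, limma adjusted p = 0.376). For Gpam, Acsl5 and Fabp5 the diets did not overlap, and Rpia was chosen for that. Among markers of fat loading, the fatty acid transporter gene Cd36 had a log2 fold change of 0.24 ± 0.36 and the lipid droplet coat gene Plin2 of 0.12 ± 0.22, both negative when arrays were scaled to a common median.

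Short E-boxes were searched for in the same promoter windows, since ChREBP, SREBP-1c and the clock proteins can all bind the letters CACGTG. They were found in 3 of 14 genes of fatty acid synthesis and 2 of 12 genes of glycolysis and fructose use with a promoter in RefSeq, where 6.86% of all genes hold them. These were Elovl5, Mlxipl and Slc25a1, and Khk and Ldha, of which Mlxipl lay higher on the HF diet with overlapping arrays. Clock genes held them in 2 of 12, immediate early genes in 4 of 21, and genes of peroxisomal and mitochondrial oxidation in 1 of 17 and 1 of 13. The matches of 2 genes that lay lower on the HF diet, and of Tef, a clock gene that lay higher, are shown with the E-box in capitals, all on the plus strand of GRCm38.p6.
Khk, chr5:30921476-30921505: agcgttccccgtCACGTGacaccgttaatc
Elovl5, chr9:77917192-77917221: actgccccgagaCACGTGaaccacaggaga
Tef, chr15:81802534-81802563: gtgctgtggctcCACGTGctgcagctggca
The E-box begins 71 bases before the start site of Khk, 161 before that of Elovl5 and 127 before this start site of Tef. None of these matches overlaps the longer carbohydrate response element, which was found in 0 of the 14 genes of fatty acid synthesis.

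Glucose output gave a mixed picture. G6pc, the glucose-6-phosphatase that releases glucose from the liver, read 18.15, 18.17 and 17.70 in HF arrays, against 18.97, 18.62 and 18.87 in LF arrays (log2 fold change −0.81 ± 0.24, limma adjusted p = 0.315). Pck1, the other key enzyme of gluconeogenesis, read 19.71, 19.56 and 19.79 in HF arrays, against 19.54, 19.46 and 19.38 in LF arrays, at a log2 fold change of 0.22 ± 0.25 that was −0.19 with arrays scaled to a common median. The alanine transaminase genes, which feed amino acid carbon into pyruvate, lay higher on HF diet. Gpt read 18.31, 18.03 and 18.12 in HF arrays, against 17.23, 17.57 and 17.58 in LF arrays (log2 fold change 0.70 ± 0.21, limma adjusted p = 0.316), and Gpt2 had a log2 fold change of 0.54 ± 0.19 with no overlap of arrays. Ppargc1a, a coactivator of gluconeogenesis and fat oxidation, had a log2 fold change of −0.86 ± 0.60 with overlapping arrays. Over 17 tested genes of gluconeogenesis and its control, 1 was higher and 1 lower at the unadjusted p, each 5.88%. Leaving out HF a, HF c or LF a left 0 in 1 of the directions. Scaling to a common median gave 0 higher and 5 lower, and a list median of −0.67 in place of −0.21.

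Few genes of fatty acid oxidation passed the unadjusted threshold, and several had HF arrays wholly above LF arrays by small steps. Of 15 tested genes of mitochondrial fatty acid oxidation, 12 had a positive log2 fold change, and the median was 0.16. The HF arrays lay wholly above the LF arrays for 5 of the 15, as for 7.71% of all tested probes. The median of the list was 0.40 without HF b and 0.07 without HF c. At the unadjusted p, 1 (6.67%) was higher and 0 lower, but without LF c 4 were higher and 1 lower, and without LF b 0 were higher. Of 18 tested genes of peroxisomal and omega oxidation, 15 were positive with a median of 0.36, and 0 were higher and 1 (5.56%) lower, with 4 higher when LF c was left out. With arrays scaled to a common median the 2 list medians were −0.08 and −0.05, which is 0.24 and 0.27 above the median of all probes. At the unadjusted p 0 genes of either list were then higher, with 1 mitochondrial and 2 peroxisomal genes lower.

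The isomerases Eci1 and Eci2, which let unsaturated fatty acids enter beta-oxidation, both stood apart by diet. Eci1 read 16.59, 16.67 and 16.71 in HF arrays, against 15.90, 15.97 and 16.17 in LF arrays (log2 fold change 0.64 ± 0.18, limma adjusted p = 0.296). Eci2 read 15.28, 15.26 and 15.70 in HF arrays, against 14.74, 14.27 and 14.78 in LF arrays (0.82 ± 0.31, limma adjusted p = 0.405). Hadhb, the thiolase subunit of the mitochondrial trifunctional protein, read 15.54, 15.29 and 15.67 in HF arrays, against 14.74, 14.73 and 15.01 in LF arrays. A second, dim probe of Hadhb had a log2 fold change of −0.01 ± 0.39. In peroxisomes, the thiolase gene Acaa1b read 19.67, 19.89 and 19.75 in HF arrays, against 19.19, 18.87 and 19.44 in LF arrays. The bifunctional enzyme gene Ehhadh, a classic target of PPAR-alpha, read 14.98, 14.62 and 14.66 in HF arrays, against 14.28, 14.16 and 14.28 in LF arrays (0.51 ± 0.21, limma adjusted p = 0.435). Phyh, which starts the oxidation of branched fatty acids, had a log2 fold change of 0.43 ± 0.17, and the reductase gene Decr2 of 0.52 ± 0.22, with overlap only for Decr2. These differences were regular from mouse to mouse and below the 1.6-fold threshold, except for Eci2. Cyp4a14, an omega-hydroxylase that PPAR-alpha induces strongly, read 10.39, 9.93 and 10.42 in HF arrays, against 8.32, 7.53 and 10.35 in LF arrays. LF c lay within the HF range, and the log2 fold change was 1.51 ± 0.80 (limma adjusted p = 0.539). Acot5, a peroxisomal thioesterase, lay the other way at 8.76, 9.14 and 8.43 in HF arrays, against 9.56, 9.84 and 11.67 in LF arrays. Outside the Acads+/+ LF arrays Acot5 was dim, at 8.05 to 9.14, and it passed the filter on mean signal only through those arrays.

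Other known responders to fat mostly overlapped between the diets. Cpt1a, which admits long-chain fatty acids to mitochondria, read 8.57, 7.98 and 7.69 in HF arrays, against 10.52, 7.89 and 8.38 in LF arrays, near the dim end. Pdk4, the pyruvate dehydrogenase kinase of fasting, read 11.86, 12.24 and 11.91 in HF arrays, against 13.61, 12.36 and 11.99 in LF arrays (log2 fold change −0.65 ± 0.40). Ppara had a log2 fold change of −0.21 ± 0.24, and Acot1, a cytosolic thioesterase, of 0.48 ± 0.40. Of the carnitine shuttle, Cpt2 had a log2 fold change of 0.44 ± 0.21 with overlapping arrays, and Crat, the carnitine acetyltransferase, read 14.61, 14.65 and 14.86 in HF arrays, against 15.29, 15.05 and 15.34 in LF arrays, with no overlap. In ketone body metabolism, Bdh1 read 15.91, 15.85 and 15.91 in HF arrays, against 15.60, 15.35 and 15.76 in LF arrays, a log2 fold change of 0.32 ± 0.17 that was −0.06 with arrays scaled to a common median, and its diets did not overlap.

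**Figure D3:**
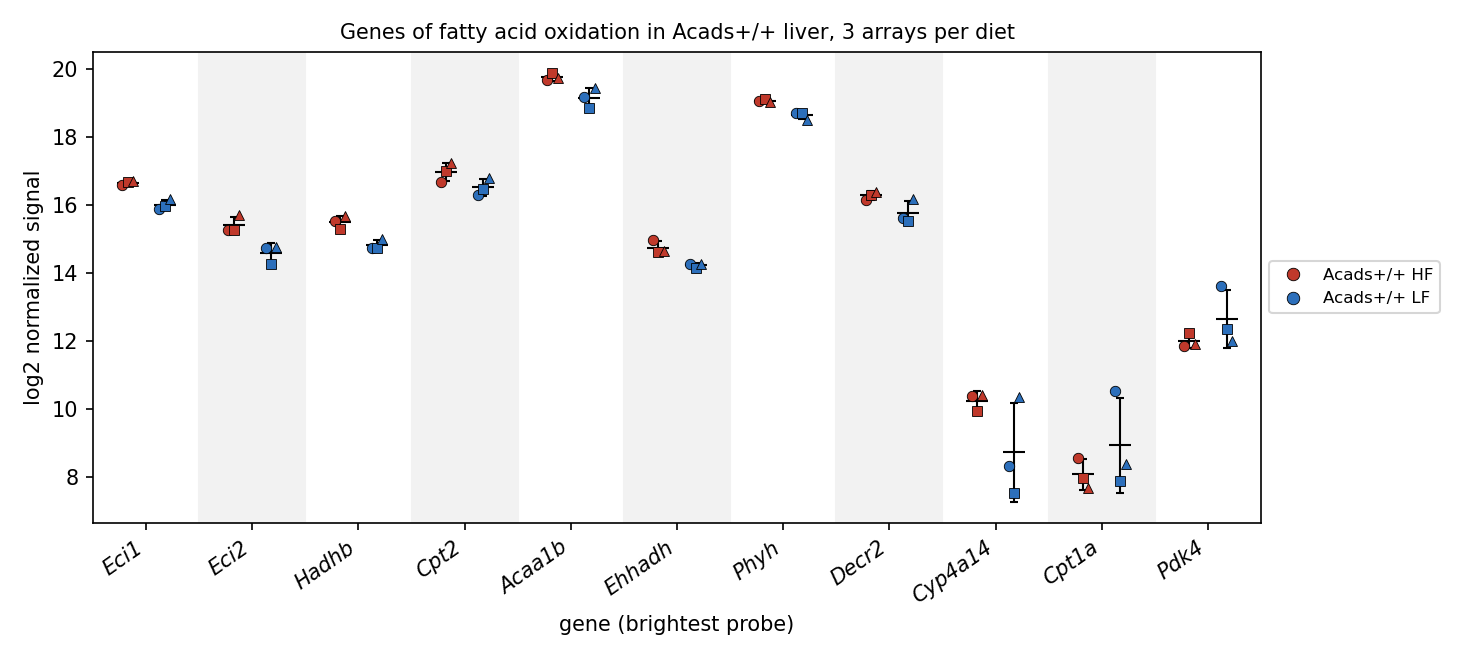
Log2 normalized signal of 11 genes of fatty acid oxidation in Acads+/+ liver, with HF arrays left of LF arrays (circle a, square b, triangle c), and black bars for the mean and SD of 3 arrays. HF points lie wholly above LF points for Eci1, Eci2, Hadhb, Acaa1b, Ehhadh and Phyh, by steps of 0.43 to 0.82 in the mean log2 signal, and the diets overlap for Cpt2, Decr2, Cyp4a14, Cpt1a and Pdk4. The genes were picked with their values known, and Acot5 and Crat, which lay lower in HF arrays without overlap, are not drawn.

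Hormone-binding and secreted factors were split. Igfbp2, a binding protein for insulin-like growth factors, read 17.59, 17.34 and 17.33 in HF arrays, against 16.29, 16.32 and 16.55 in LF arrays (log2 fold change 1.04 ± 0.23, limma adjusted p = 0.215). Igfbp1, which insulin represses, read 12.90, 12.91 and 13.84 in HF arrays, against 15.73, 13.48 and 15.24 in LF arrays (−1.60 ± 0.70, limma adjusted p = 0.459). Igfbp2 was chosen among probes whose diets do not overlap, and the diets overlapped for Igfbp1. The hepatokine gene Lect2 read 18.02, 17.82 and 18.13 in HF arrays, against 16.89, 17.26 and 16.84 in LF arrays (0.99 ± 0.28, limma adjusted p = 0.296), and Igfbp4 had a log2 fold change of 1.39 ± 0.50. Of 20 tested members, 3 (15%) were higher and 1 (5%) lower at the unadjusted p, and 0 were lower without HF a, HF b or LF a. When arrays were scaled to a common median, 1 was higher and 2 were lower. Fgf21, the fasting hormone that PPAR-alpha induces, read 11.98, 12.11 and 13.11 in HF arrays, against 12.68, 12.88 and 12.05 in LF arrays, which overlap. The lipase inhibitor gene Angptl4 had a log2 fold change of −0.48 ± 0.29, and Apoa4, an apolipoprotein of fat-fed liver, of −0.64 ± 0.67.

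In cholesterol synthesis, 12 of 17 tested genes were positive, with a median log2 fold change of 0.27, and 2 (11.8%) were higher and 1 (5.88%) lower at the unadjusted p. The count of genes higher was 4 without LF a and 1 without HF c or LF c. With arrays scaled to a common median 0 were higher and 2 lower. The median was 0.52 without HF a and 0.16 without HF c, and it was −0.12 with arrays scaled to a common median, 0.20 above that of all probes. Msmo1, a sterol oxidase, read 16.97, 17.09 and 16.99 in HF arrays, against 16.21, 16.17 and 15.62 in LF arrays (log2 fold change 1.02 ± 0.32, limma adjusted p = 0.340). Fdft1, the squalene synthase, read 16.28, 16.43 and 16.55 in HF arrays, against 15.79, 15.69 and 15.63 in LF arrays (0.71 ± 0.23). Insig2 codes for a protein that holds SREBP in the endoplasmic reticulum, and its transcript read 16.57, 16.62 and 16.90 in HF arrays, against 17.81, 17.57 and 17.31 in LF arrays (−0.87 ± 0.21, limma adjusted p = 0.270). The second Insig2 probe, which was dim, lay the other way at 0.86 ± 0.56. Sqle, the squalene epoxidase, shows why single arrays matter here, with 10.62, 15.82 and 16.03 in HF arrays, against 15.45, 15.41 and 14.30 in LF arrays. Its log2 fold change was −0.90 ± 1.17 with all arrays and 0.87 without HF a.

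Bile acid genes lay in both directions. Cyp8b1, the 12-alpha-hydroxylase that sets the share of cholic acid, read 17.54, 18.49 and 18.32 in HF arrays, against 19.11, 18.73 and 19.12 in LF arrays (log2 fold change −0.87 ± 0.28, limma adjusted p = 0.356). Nr1h4, the gene for the bile acid receptor FXR, read 15.65, 15.17 and 15.09 in HF arrays, against 14.55, 14.41 and 14.85 in LF arrays (0.70 ± 0.22, limma adjusted p = 0.344). Abcc2, an export pump of the bile canaliculus, read 12.38, 12.63 and 12.15 in HF arrays, against 11.77, 11.22 and 11.70 in LF arrays (0.83 ± 0.25). For all 3 the diets did not overlap. Cyp39a1, an oxysterol hydroxylase, had a log2 fold change of 1.05 ± 0.29, and the racemase gene Amacr of 0.64 ± 0.22. Cyp7a1, the rate-limiting enzyme of bile acid synthesis, read 10.62, 9.73 and 9.80 in HF arrays, against 8.93, 12.93 and 10.34 in LF arrays on its brighter probe. That probe had a log2 fold change of −0.68 ± 0.88 and the dimmer one of 0.95 ± 0.72, so no direction can be given for it. Over 19 tested members, 3 (15.8%) were higher and 1 (5.26%) lower at the unadjusted p, with 1 higher when LF b was left out and 0 lower when HF a was. Scaling to a common median gave 1 higher and 1 lower, and a list median of −0.21 in place of 0.20.

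Several cytochrome P450 genes of drug metabolism lay higher on the HF diet. Cyp2f2 read 20.03, 19.52 and 20.64 in HF arrays, against 18.21, 18.31 and 17.90 in LF arrays (log2 fold change 1.92 ± 0.49, limma adjusted p = 0.272). Cyp2a4, a steroid hydroxylase, read 17.32, 17.11 and 17.62 in HF arrays, against 15.24, 15.65 and 15.83 in LF arrays (1.77 ± 0.40, limma adjusted p = 0.237). Cyp1a2, which breaks down caffeine and is a target of the aryl hydrocarbon receptor, read 19.50, 19.45 and 19.82 in HF arrays, against 18.12, 18.77 and 18.71 in LF arrays (1.05 ± 0.23, limma adjusted p = 0.215). These genes and Cyp2c54 (0.97 ± 0.36) were the 4 of 31 tested members (12.9%) that were higher at the unadjusted p, and 0 were lower. The median of the list was 0.03, and −0.24 with arrays scaled to a common median. Under that scaling 2 members were higher and 3 lower at the unadjusted p. P450 genes form families of near-identical copies, and probes for Cyp2a4 and Cyp2c54 may read their neighbours. Nr1i3, the gene for the xenobiotic receptor CAR, read 15.59, 15.71 and 15.86 in HF arrays, against 14.86, 14.50 and 15.09 in LF arrays (0.90 ± 0.31, limma adjusted p = 0.387). Aox3, an aldehyde oxidase of drug and vitamin metabolism, read 16.96, 16.68 and 16.29 in HF arrays, against 15.17, 15.27 and 15.31 in LF arrays (1.39 ± 0.31, limma adjusted p = 0.215).

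The molecular clock is a loop in which the activators BMAL1 (gene Arntl), CLOCK and NPAS2 switch on the repressors of the Per and Cry families and the output factors Dbp and Tef. Among its tested genes some lay higher and some lower in HF livers. Dbp read 15.48, 15.53 and 15.45 in HF arrays, against 11.80, 11.96 and 14.76 in LF arrays (log2 fold change 2.65 ± 0.75, 6.26-fold higher in HF livers, limma adjusted p = 0.296). The HF arrays were almost equal, and LF c lay much nearer to them than LF a and b did. Tef had the same pattern, at 14.58, 14.22 and 14.37 in HF arrays, against 12.89, 12.82 and 13.86 in LF arrays (2.30-fold higher in HF livers, limma adjusted p = 0.294). Nr1d2, the repressor REV-ERB-beta, read 10.36, 9.90 and 9.46 in HF arrays, against 8.79, 7.76 and 9.30 in LF arrays (limma adjusted p = 0.516). Per2 read 9.93, 9.99 and 9.01 in HF arrays, against 8.85, 8.78 and 7.96 in LF arrays (limma adjusted p = 0.629). Neither passed the unadjusted threshold. Ccrn4l, the deadenylase Nocturnin, read 13.07, 12.83 and 12.08 in HF arrays, against 11.41, 11.83 and 11.21 in LF arrays (1.17 ± 0.46). Arntl read 12.20, 11.79 and 11.22 in HF arrays, against 13.03, 12.70 and 12.13 in LF arrays (−0.88 ± 0.34, limma adjusted p = 0.411), with a small overlap. Npas2 read 8.02, 7.41 and 8.56 in HF arrays, against 8.67, 8.67 and 10.10 in LF arrays. It was dim outside the Acads+/+ LF arrays, at 7.41 to 9.42, and passed the filter on mean signal only through those arrays. The repressor gene Bhlhe40 read 10.69, 9.22 and 9.31 in HF arrays, against 10.60, 11.53 and 10.74 in LF arrays, which overlap. Nr1d1, the partner of Nr1d2, gave no such difference, with a log2 fold change of 0.10 ± 0.33 that was −0.27 with arrays scaled to a common median.

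Over 15 tested clock genes, 3 (20%) were higher and 4 (26.7%) lower at the unadjusted p, where Timeless, whose 2 probes disagree (−1.58 ± 0.58 and −0.05 ± 0.63), is among the lower ones. Leaving out HF b or LF b left 1 gene lower and leaving out HF c left 2, and leaving out HF a, HF b or LF a left 2 higher. Scaling to a common median gave 2 higher and 6 lower. Clock and Per1 were below the filter on dim signals. The methods describe the killing of the mice within 1 morning hour for brain, and the times of single mice or of liver are not given in the sources used here. The part of the time of day in these values was not tested.

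**Figure D4:**
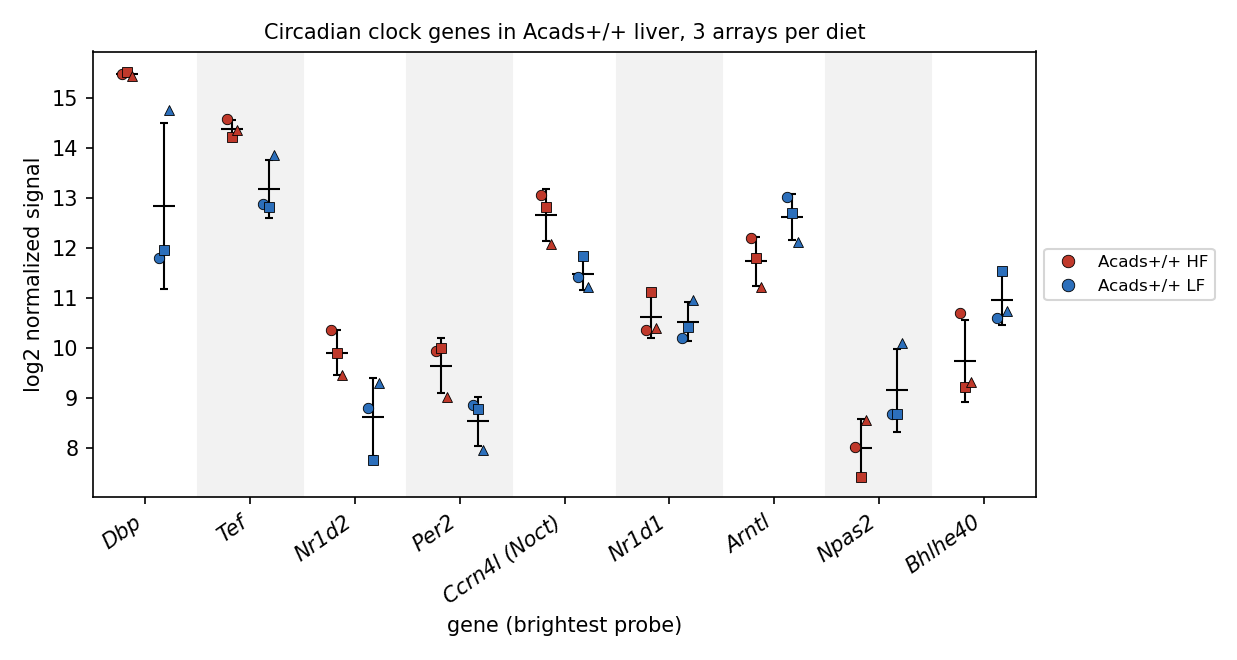
Log2 normalized signal of 9 circadian clock genes in Acads+/+ liver, with HF arrays left of LF arrays (circle a, square b, triangle c), and black bars for the mean and SD of 3 arrays. The HF points of Dbp lie together at 15.45 to 15.53 while its LF points run from 11.80 to 14.76, and Arntl and Npas2 lie the other way. Nr1d1, whose difference turns negative with arrays scaled to a common median, shows no gap.

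Immediate early genes, which cells switch on within minutes of growth factors, stress or handling, lay lower in HF than in LF livers. Of 28 tested members, 11 (39.3%) were lower and 0 higher at the unadjusted p, and the median log2 fold change was −0.67. The HF arrays lay wholly below the LF arrays for 12 of the 28, as for 9.57% of all tested probes. Without LF b 7 were lower, and without any other array from 8 to 11. Among the 11, Fosl2 was dim outside the Acads+/+ LF arrays, at 7.57 to 9.62, and passed the filter on mean signal only through those arrays. Fos, a subunit of the AP-1 transcription factor, read 7.67, 7.63 and 8.01 in HF arrays, against 11.23, 9.42 and 11.14 in LF arrays (log2 fold change −2.83 ± 0.54, 7.09-fold lower in HF livers, limma adjusted p = 0.188). Its partner Jun read 11.18, 11.67 and 11.70 in HF arrays, against 12.88, 13.34 and 13.51 in LF arrays (−1.73 ± 0.40, limma adjusted p = 0.251). In both the HF arrays lay close together. Ctgf, a matricellular growth factor, read 10.04, 10.58 and 10.68 in HF arrays, against 11.67, 12.37 and 11.57 in LF arrays (−1.44 ± 0.39). The stress factor gene Atf3 read 10.58, 9.40 and 9.70 in HF arrays, against 11.22, 10.97 and 11.37 in LF arrays (−1.29 ± 0.35). The growth factor response gene Myc read 8.49, 8.35 and 8.83 in HF arrays, against 9.99, 10.26 and 9.73 in LF arrays (−1.44 ± 0.48). To complete the count, the other members lower at the unadjusted p were the AP-1 genes Fosb (−0.76 ± 0.29) and Fosl2 (−1.23 ± 0.45), the orphan receptor gene Nr4a1 (−0.77 ± 0.26), the GTPase gene Rhob (−0.75 ± 0.22), the TGF-beta response gene Klf10 (−1.14 ± 0.40) and the MAP kinase phosphatase gene Dusp1 (−1.13 ± 0.39), which was the only one of the 11 with overlapping arrays.

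Dusp1 also had a cyclic AMP response element of the letters TGACGTCA in its promoter window, as 2 of 21 immediate early genes and 1.77% of all genes do. It is shown because the element is the usual link of such genes to hormone signals. It lies at chr17:26508597-26508626 on the minus strand of GRCm38.p6, with the element in capitals.
Dusp1: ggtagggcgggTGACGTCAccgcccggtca

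The Acads−/− arrays gave the same direction for some of the immediate early genes named above and the opposite direction for others. For Dusp1 the log2 fold change in Acads−/− liver was −1.25 ± 0.39, with no overlap of arrays. It was also negative for Klf10 (−0.62 ± 0.40), Fosb (−0.46 ± 0.29), Jun (−0.28 ± 0.40) and Rhob (−0.06 ± 0.22). It was positive for Fos, Ctgf, Atf3, Myc, Nr4a1 and Fosl2. In Acads−/− liver Fos read 9.95, 10.48 and 10.11 in HF arrays, against 8.40, 9.87 and 8.11 in LF arrays, and the median of the immediate early genes was 0.01. The interaction for Fos was −4.21 ± 0.76 on the log2 scale (Acads+/+ minus Acads−/−), with an unadjusted p of 0.000231 and a limma adjusted p of 0.782. Over the list, 12 of 28 interactions were negative and 1 positive at the unadjusted p. Among all probes the interaction gave 0 (0%) at the adjusted p, with 362 (2.19%) positive and 486 (2.94%) negative at the unadjusted p.

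**Figure D5:**
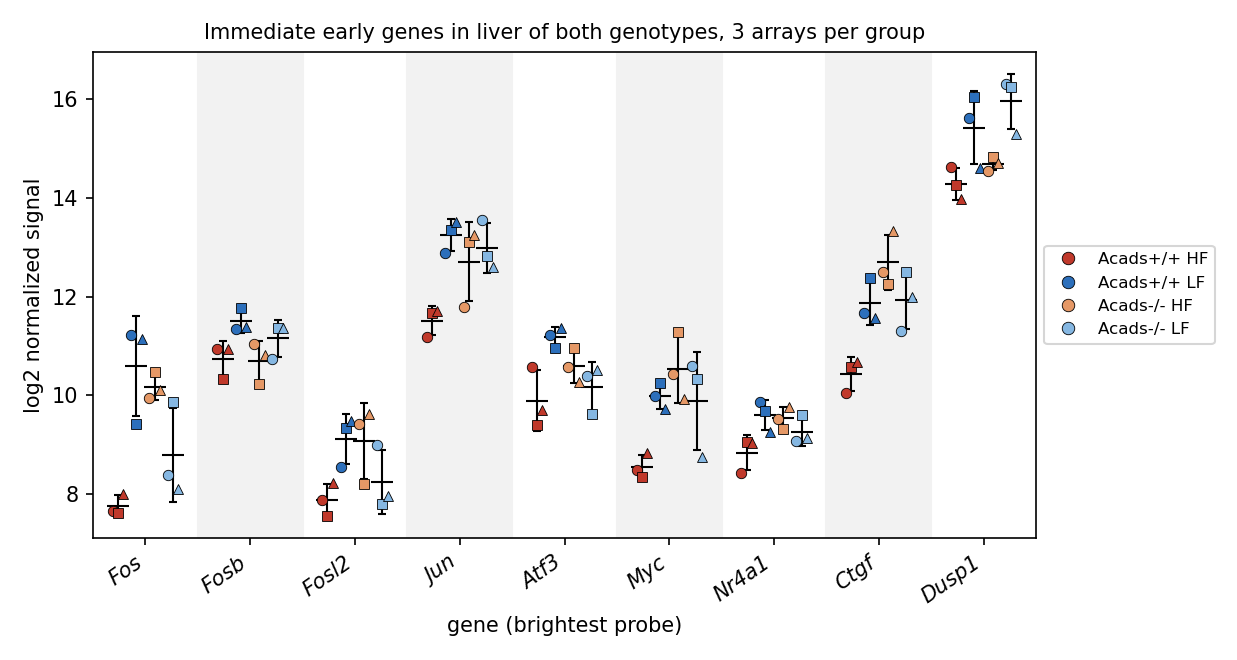
Log2 normalized signal of 9 immediate early genes in the 4 liver groups, from left to right Acads+/+ HF, Acads+/+ LF, Acads−/− HF and Acads−/− LF (circle a, square b, triangle c), with black bars for the mean and SD of 3 arrays. In Acads+/+ liver the HF points of Fos lie at 7.63 to 8.01 and the LF points at 9.42 to 11.23, and in Acads−/− liver the HF points lie at 9.95 to 10.48 and the LF points at 8.11 to 9.87.

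Acute phase proteins, which the liver secretes on inflammation, gave 4 genes lower (11.8%) and 0 higher of 34 tested at the unadjusted p. The median was 0.07, and −0.35 with arrays scaled to a common median. The list was mixed, with 19 genes positive and 15 negative. The HF arrays lay wholly above the LF arrays for 4 genes and wholly below for 3, against 7.71% and 9.57% of all tested probes. The genes named here are ones that lay lower. Orm2, an orosomucoid, read 11.56, 11.71 and 11.79 in HF arrays, against 12.78, 14.81 and 13.24 in LF arrays (log2 fold change −1.93 ± 0.46, limma adjusted p = 0.261). Saa2, a serum amyloid A, read 12.33, 12.69 and 13.48 in HF arrays, against 13.36, 15.91 and 14.01 in LF arrays (−1.59 ± 0.70). LF b was the highest array for both, and without it 2 of the 34 genes were lower. The ferroxidase gene Cp read 15.94, 15.66 and 15.66 in HF arrays, against 16.88, 17.09 and 16.34 in LF arrays (−1.02 ± 0.25, limma adjusted p = 0.268), and the amyloid P gene Apcs had a log2 fold change of −0.81 ± 0.29. Lcn2, lipocalin 2, read 11.50, 11.01 and 12.04 in HF arrays, against 11.93, 14.27 and 12.50 in LF arrays, with LF b again the highest.

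Markers of other cell types differed in part. Of 15 lymphocyte markers 4 passed the filter, and their summed signal was 12.00 to 12.31 on the log2 scale in HF arrays, against 12.58 to 13.45 in LF arrays. Of these, 2 were lower at the unadjusted p, the B cell receptor gene Cd79a (log2 fold change −0.95 ± 0.33) and the immunoglobulin J chain gene Jchain (−1.01 ± 0.45), with 0 lower without LF b, 1 without any 1 HF array and 3 without LF c. The T cell genes Cd3e and Cd3d and the B cell gene Ms4a1 were below the filter. In RNA of whole liver, fewer cells of a type and less RNA per cell cannot be told apart. The summed Kupffer cell and macrophage markers (11 tested) overlapped, at 17.56 to 18.00 in HF arrays, against 17.59 to 18.57 in LF arrays, as did the endothelial markers, at 17.40 to 17.53 in HF arrays, against 17.44 to 17.63 in LF arrays. Of 6 tested exocrine pancreas markers the sum was 13.17 to 13.96 in HF arrays, against 14.20 to 15.66 in LF arrays. Trypsin gene Prss1 read 12.94, 11.70 and 13.40 in HF arrays, against 14.44, 15.43 and 13.87 in LF arrays, while the elastase gene Cela2a lay the other way, at 9.97, 10.54 and 10.58 in HF arrays, against 8.42, 9.74 and 7.15 in LF arrays. Outside the Acads+/+ HF arrays Cela2a was dim, at 7.15 to 9.74, and it passed the filter on mean signal only through those arrays. The summed cholangiocyte markers (5 tested) read 15.10 to 16.09 in HF arrays, against 16.13 to 17.49 in LF arrays. A sum follows its brightest members, and the mean log2 signal of the same members overlapped between diets for these lists. For cholangiocyte markers it was 10.55 to 11.72 in HF arrays, against 11.32 to 11.74 in LF arrays. Pancreas markers gave 9.72 to 10.66 against 9.72 to 10.93, and lymphocyte markers 9.54 to 10.21 against 10.19 to 11.03. Hepatocyte markers (10 tested) had 0 past the unadjusted threshold and a median of 0.07, or −0.34 with arrays scaled to a common median. The part of these cells in the acute phase and immediate early values was not tested.

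Amino acid breakdown gave 12 of 45 tested genes with HF arrays wholly above LF arrays and 1 wholly below, with a median log2 fold change of 0.23. Of all tested probes, 7.71% lay wholly above and 9.57% wholly below. At the unadjusted p 4 (8.89%) were higher and 0 lower, and 1 was higher without HF b or without LF b and 2 without HF a. With arrays scaled to a common median the split turned round, to 0 higher and 4 lower. The median was 0.11 without HF c, 0.15 without LF a and −0.18 with arrays scaled to a common median, 0.14 above that of all probes. Ddc, the aromatic amino acid decarboxylase, read 15.10, 14.91 and 15.02 in HF arrays, against 14.13, 14.34 and 13.94 in LF arrays (0.87 ± 0.20, limma adjusted p = 0.244). Agxt, which clears glyoxylate with alanine, read 17.91, 18.26 and 17.83 in HF arrays, against 17.05, 17.17 and 17.68 in LF arrays (0.70 ± 0.24, limma adjusted p = 0.387). Hpd, of tyrosine breakdown, and Uroc1, of histidine breakdown, each had a log2 fold change of 0.59, with no overlap of the diets. The branched-chain dehydrogenase gene Dbt had 0.99 ± 0.40, and the urea cycle gene Otc 0.71 ± 0.32.

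The remaining genes that led the comparison belong to no common group. Dhx16, an RNA helicase of splicing, had the lowest p of the genes that lay higher, at 10.28, 10.83 and 10.51 in HF arrays, against 9.05, 9.06 and 9.20 in LF arrays (log2 fold change 1.43 ± 0.21, limma adjusted p = 0.0911). Irf5, an interferon regulatory factor of macrophages, read 11.71, 11.14 and 11.37 in HF arrays, against 9.73, 10.25 and 9.88 in LF arrays (1.45 ± 0.27, limma adjusted p = 0.172). The other leaders with HF higher were Abca4 (1.46 ± 0.31), Rrp7a (2.96 ± 0.64), Vmn1r10 (2.20 ± 0.48), Fahd1 (0.77 ± 0.17), Mcm10 (0.97 ± 0.22) and Zpr1 (0.78 ± 0.18), as the platform annotation names them. Rrp7a had a second, dim probe at 0.30 ± 0.32. On the lower side, Reck, an inhibitor of matrix metalloproteinases, read 9.16, 8.16 and 8.40 in HF arrays, against 10.52, 10.74 and 10.74 in LF arrays (−2.09 ± 0.34, limma adjusted p = 0.127). Gga1, an adaptor of vesicle transport, read 8.54, 8.43 and 8.88 in HF arrays, against 10.32, 11.09 and 10.63 in LF arrays (−2.06 ± 0.34, limma adjusted p = 0.127). Tmie read 12.24, 12.47 and 12.27 in HF arrays, against 13.52, 13.54 and 13.46 in LF arrays (−1.18 ± 0.20, limma adjusted p = 0.127). The others were Fcrls (−1.58 ± 0.27), Celsr1 (−1.12 ± 0.20), Rtn2 (−1.61 ± 0.29) and Foxi2 (−2.52 ± 0.47). Fcrls was dim outside the Acads+/+ LF arrays, at 7.91 to 8.84, and so was Rtn2, at 7.86 to 9.42. Vmn1r10 was dim outside the Acads+/+ HF arrays, at 7.16 to 8.46. Each of these passed the filter on mean signal only through the arrays where it is high, so its p-value is not independent of the filter. All leading genes of this paragraph were chosen among probes whose diets do not overlap, so that the absence of overlap is no finding for them.

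The same contrast in Acads−/− liver, on other mice, gave 18 probes (0.109%) at the adjusted p, 6 higher and 12 lower, and 610 (3.70%) higher and 611 (3.70%) lower at the unadjusted p. Arrays did not overlap for 1115 probes (6.76%) with HF higher and 1279 (7.75%) with HF lower. Of the probes past the unadjusted threshold, 246 passed in both genotypes, which is 17.1% of the Acads+/+ set and 20.1% of the Acads−/− set. Of these 85 were higher in both, 140 lower in both and 21 opposite. Among the genes named here, some of sugar use and fat synthesis, G6pc and Celsr1 passed the adjusted test in Acads−/− liver. For Celsr1 the log2 fold change was −1.40 ± 0.20 there (limma adjusted p = 0.0464) and −1.12 in Acads+/+ liver. In Acads−/− liver the log2 fold change was −2.40 ± 0.26 for Pklr (limma adjusted p = 0.0187), −1.63 ± 0.21 for Tkfc (0.0239), −4.63 ± 0.70 for Elovl6 (0.0490), −2.51 ± 0.31 for Gpam (0.0239) and −1.68 ± 0.24 for G6pc (0.0433). In Acads+/+ liver these were −1.83, −1.56, −1.73, −1.27 and −0.81. No interaction passed the adjusted test, with an unadjusted p of 0.0146 for Elovl6, 0.0182 for Gpam, 0.0257 for G6pc, 0.158 for Pklr and 0.817 for Tkfc, so a larger response in Acads−/− liver was not shown. Among genes with HF higher, the log2 fold change was 1.04 in Acads+/+ and 1.06 in Acads−/− liver for Igfbp2, and 2.65 in Acads+/+ and 2.97 in Acads−/− liver for Dbp. It was 1.43 in Acads+/+ and 0.20 in Acads−/− liver for Dhx16, 1.39 and 0.07 in the same order for Aox3, 0.99 and 0.09 for Lect2, and 1.46 and −0.06 for Abca4, with an interaction adjusted p from limma of 0.854 to 0.890 for these 4 genes.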

How the data were processed

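Liver RNA was hybridised to Applied Biosystems arrays of the mouse genome (1 colour, 33012 probes), 1 array per mouse. The deposited intensities are assay signals that the authors extracted with the analyzer software and did not normalize between arrays. The log2 values that the authors deposited equal the log2 of those signals after quantile normalization, with column medians of 8.62. Signal-to-noise ratios, quality flags, slides and scan dates were not used here, and a filter on mean signal stood in for the detection filter. The number of arrays limits the precision.

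Signals of the 12 liver arrays were quantile-normalized and set to a floor of 142, their 5th percentile, before log2. The brighter 16506 probes by mean signal were fitted with limma 3.58.1 in R 4.3.3 on all 4 liver groups, which share 1 estimate of spread (median residual SD 0.524), and p-values were adjusted over all tested probes. A probe was called at an adjusted p under 0.05 and at least 1.6-fold. The fit was tested on simulated data. Platform annotation gives 14411 probes 1 symbol and 247 several, and 18354 are unnamed. A gene is given by its brightest probe, and genes below the filter come from the fit over all probes. Of 882 genes in 36 lists, 547 were tested. Named are the 12 leading genes per direction by lowest unadjusted p among probes of at least 1.6-fold whose diets do not overlap, leading list members, and textbook genes of each list. A few further members, such as Nr1d2 and some immediate early genes, were named after their values were seen. Members, lists and genes were chosen with earlier results of these data known. Promoters are those of RefSeq. Alternatives are given in the closing section.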

Additional observations from a re-analysis of the deposited data

Results flagged for a closer look

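For 3 named genes the HF and LF arrays did not overlap in either genotype and lay in opposite directions, which is why they are set out here. For Fos the interaction was −4.21 on the log2 scale (Acads+/+ minus Acads−/−), with its array values given above. Ddc read 14.43, 14.18 and 14.30 in HF arrays of Acads−/− liver, against 15.11, 14.80 and 14.53 in LF arrays, and its interaction was 1.38. Fahd1 read 13.92, 14.17 and 13.92 in HF arrays of Acads−/− liver, against 14.35, 14.33 and 14.38 in LF arrays, and its interaction was 1.12. The adjusted p of the interaction from limma was 0.782 for all 3, so none passed the test of the difference.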

How the results depend on the processing

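The count of called probes between HF and LF liver was 0 with an offset of 500, with no filter on dim probes, with the authors' log2 values, with only the 6 arrays compared, with the methods' t-test after Benjamini-Hochberg adjustment and with the adjusted p alone. It was 8 with arrays scaled to a common median, 6 with the 25% brightest probes and 1 with array weights, all lower in HF livers, and Pklr, Tkfc and Tmie were the named genes among both the 8 and the 6. At an unadjusted p it was 1436 by limma and 899 by the methods' t-test. Leaving out 1 array gave 0 to 1, with 1 probe called without HF a, without HF c (Vmn1r10, dim outside the HF arrays) or without LF a of Acads−/−. The interaction gave 0 called probes except 848 at an unadjusted p, and 0 to 1 on leaving out 1 array, with 1 without HF a of Acads−/−. A covariate for the first component of the residuals, an alternative chosen after seeing the data, gave 0 for both counts. At an unadjusted p the Acads+/+ count was 978 without LF b and 1654 without LF a.

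The replicate number as a block, on the authors' log2 values, gave 0 called probes. Deviations of same-numbered HF and LF arrays correlated at 0.179, −0.181 and 0.100, so the numbers were not taken as pairs.

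Of 119 named genes, 10 changed sign under an alternative. Scaling to a common median turned the log2 fold change of Pck1 to −0.19, Bdh1 to −0.06, Cd36 to −0.17, Plin2 to −0.28, Nr1d1 to −0.27 and Alb to −0.18. Over the fits that leave out 1 array it ran from −0.10 to 0.51 for Cd36, −0.02 to 0.25 for Plin2, −0.50 to 0.07 for Fgf21, −1.83 to 0.87 for Sqle, −1.58 to 0.42 for Cyp7a1, −0.15 to 0.32 for Nr1d1 and −0.21 to 0.66 for Acads. The cause was not tested.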
